A study of Homo sapiens with 6 samples.

Results

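The genes described here are HOX genes of the 4 human HOX clusters, found as rows whose Ensembl identifier maps to a symbol made of HOXA, HOXB, HOXC or HOXD and a number. They are 31 of the 39 human HOX genes and 31 of 16715 distinct identifiers, with 8 in HOXA, 8 in HOXB, 7 in HOXC and 8 in HOXD. The cells were HCT116, an established line from a human colorectal carcinoma, at passages 7 to 10, with 3 control libraries and 3 libraries of cells given 5aza. The 5aza cells had 5 µM of the compound for 48 hours and then 48 hours in fresh medium. Sample titles call the compound 5aza and sample descriptions carry the code DAC, and its full name is not given. It is read here as an azanucleoside, a class of cytidine analogues that trap DNA methyltransferases. The labels describe no vehicle for the control cells. All 6 libraries come from the same line, and nothing in the labels says that libraries of a group came from separate cultures, so p-values measure only the spread between these libraries, which may be technical. RNA was measured in bulk, so fewer cells with a transcript and less of it per cell cannot be told apart.

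HOX genes encode homeodomain transcription factors that give cells their position along the head-to-tail axis of the embryo. Within a cluster all genes point the same way, and their order on the chromosome follows the order of their expression domains: low numbers act in the hindbrain and anterior trunk, and high numbers in the posterior trunk, hindgut, limbs and urogenital tract. Genes with the same number in different clusters are paralogues. Adult cells keep much of this pattern, and HOX genes that are not used are held silent by polycomb complexes, and in many tumours also by DNA methylation of their CpG-rich promoters. Here numbers 1 to 4 are called anterior, 5 to 8 central and 9 to 13 posterior.

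DNA methyltransferases act on cytosines of CpG dinucleotides, so promoters are shown with each CpG in capitals. RefSeq windows on GRCh38.p14 were read over the 250 bases before the RefSeq start of the gene, which need not be the GENCODE start. A single window was found for 15 members, HOXA3 had 7 windows, and none was used for the other 15, HOXB2 among them. The sequences are of HOXA7, the HOX gene that fell, of HOXA9, the most abundant, and of HOXD3 and HOXD13, which were near 0. Each is given 5′ to 3′ on the strand of the gene, and bases that GENCODE release 29 places in an exon of any gene were left out, which shortened HOXA7 to 171 bases. HOXA7 lies at chr7:27156755-27156925 and HOXA9 at chr7:27165538-27165787, both on the minus strand and within an intron of at least 1 other transcript of the same gene. HOXD3 lies at chr2:176157057-176157306, in an intron of a longer transcript of the gene, and HOXD13 at chr2:176092471-176092720, before the gene, both on the plus strand.
HOXA7: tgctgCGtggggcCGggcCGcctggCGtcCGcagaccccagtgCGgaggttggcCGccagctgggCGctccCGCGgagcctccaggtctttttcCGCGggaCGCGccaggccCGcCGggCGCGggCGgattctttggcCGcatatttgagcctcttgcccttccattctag
HOXA9: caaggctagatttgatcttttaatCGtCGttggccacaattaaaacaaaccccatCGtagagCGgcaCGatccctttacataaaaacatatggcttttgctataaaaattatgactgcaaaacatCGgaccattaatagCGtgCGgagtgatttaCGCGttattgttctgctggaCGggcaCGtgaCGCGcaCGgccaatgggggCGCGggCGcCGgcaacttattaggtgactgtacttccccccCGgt
HOXD3: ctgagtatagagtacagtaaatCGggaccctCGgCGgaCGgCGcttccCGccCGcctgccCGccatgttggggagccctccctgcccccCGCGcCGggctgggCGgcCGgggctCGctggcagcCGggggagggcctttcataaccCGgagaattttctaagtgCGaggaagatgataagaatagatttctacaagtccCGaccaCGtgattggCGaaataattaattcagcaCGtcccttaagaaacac
HOXD13: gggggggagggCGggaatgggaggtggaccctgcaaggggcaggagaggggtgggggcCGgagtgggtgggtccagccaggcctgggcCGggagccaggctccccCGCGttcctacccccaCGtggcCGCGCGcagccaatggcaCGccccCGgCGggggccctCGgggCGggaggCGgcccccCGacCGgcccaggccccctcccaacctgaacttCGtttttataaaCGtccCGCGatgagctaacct

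Some of the windows shown, which were chosen by level, held like numbers of CpGs although their genes differed widely in level. HOXA9, HOXD3 and HOXD13 held 20, 21 and 21 CpGs in 250 bases, while their control means were 105, 0.107 and 0.0355 FPKM. The likeness holds for the windows picked. Windows of other members under 0.5 FPKM in all controls held from 4 (HOXD4) to 31 (HOXD1) CpGs, and HOXB1, at 0 in all controls, had 7. HOXA9 and HOXD3 have other transcripts that span the window, so their gene-level values need not come from the start shown. FPKM scales fragments by transcript length and by the library's mapped total, which lets levels of different genes be compared. Counts over the 15 windows include exonic bases, which 11 of them hold. The HOXC5 window ends at 54016887 on chromosome 12, upstream of the GENCODE gene, which starts at 54032853. Those of HOXD4 and HOXD10 lie within their GENCODE genes. The windows of HOXD4, HOXC5 and HOXA11 are wholly exonic: HOXD4's in exons of HOXD4 and AC009336.2, HOXC5's in a HOXC6 exon and HOXA11's in HOXA11-AS. Over the 15 windows the median was 21 CpGs, with a range of 4 (HOXD4) to 40 (HOXA13), and over all 35116 windows the median was 11. Members that reached the level needed for testing had a median of 26 CpGs (range 11 to 40) and the others of 18.5 (range 4 to 31). The pentamer CCAAT, on either strand, was in 13 of the 15 HOX windows (86.7%) and in 32.0% of all windows. TATAAA was in 2 of 15 and in 10.7% of all, and TGATNNAT, a letter pattern bound by pairs of HOX and PBX proteins, was in 2 of 15 (HOXA2 and HOXB1) and in 6.47% of all. Such matches describe the letters only.

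Summed FPKM was lower in every 5aza library (577735 to 592051) than in any control library (601916 to 628399), and its part in the HOX results was not tested. Values of 0 were fewer after 5aza: 755 to 801 rows against 1663 to 1761 in the control libraries. Of the 11 markers of colorectal epithelial cells, all were in the table, with a summed level of 2570 to 2726 FPKM in control and 3065 to 3141 FPKM in 5aza libraries, most of it from the keratin genes KRT8, KRT18 and KRT19. KRT19 rose from 740 to 936 FPKM and CDH1 from 12.7 to 16.2 FPKM, while EPCAM fell from 166 to 153 FPKM. The differentiation markers VIL1 and LGALS4 were under 0.5 FPKM in all libraries, and CDX1 was listed at 0 in all controls. The 8 fibroblast markers summed to 31.4 to 31.7 FPKM in control and 32.2 to 33.9 FPKM in 5aza libraries, most of it PDGFRA (26.7 and 25.7 FPKM) and COL1A1, which rose from 4.67 to 6.71 FPKM, and COL1A2 and LUM were listed at 0 in all controls. The 5 blood cell markers summed to 0.342 to 0.413 and 0.492 to 1.14 FPKM, and the 4 endothelial markers to 0.165 to 0.352 and 0.223 to 0.613 FPKM. The epithelial, fibroblast and blood cell sums were higher in every 5aza library than in any control library, and the endothelial sums overlapped. Their part in the HOX results was not tested.

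In control cells the 7 most abundant HOX genes were all from HOXA and HOXB, and the highest of HOXC was HOXC9 at 6.03 FPKM. Each of HOXA and HOXB also held a gene under 0.5 FPKM, HOXA2 and HOXB1. HOXA9 (ENSG00000078399, chromosome 7, 27162435 to 27175180), a posterior gene best known from blood stem cells and leukaemia, was the most abundant at 108, 104 and 102 FPKM in control replicates 1 to 3. It made up 33.9% of the summed HOX level and ranked above 94.5% of all identifiers. Next in order were HOXB8 (43.4 ± 0.728 FPKM, SD, n = 3), HOXB7 (38.3 ± 0.846 FPKM), HOXB6 (19.1 ± 0.889 FPKM) and HOXB9 (18.8 ± 0.799 FPKM), which lie side by side on chromosome 17. The control libraries of HOXA9, HOXB8 and HOXB7 did not overlap with those of the next gene in the order, whereas those of HOXB6 and HOXB9 did. HOXA7, at 17.3 FPKM, and HOXB3, at 13.9 FPKM, followed, each without overlap with the next gene in the order. Below them came HOXA3 (7.84 FPKM), HOXA11 (7.24 FPKM), HOXA5 (6.05 FPKM) and HOXC9 (6.03 FPKM). In HOXD, HOXD8 alone was above 0.5 FPKM in any control library, at 2.89, 2.79 and 3.17 FPKM.

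**Figure D1:**
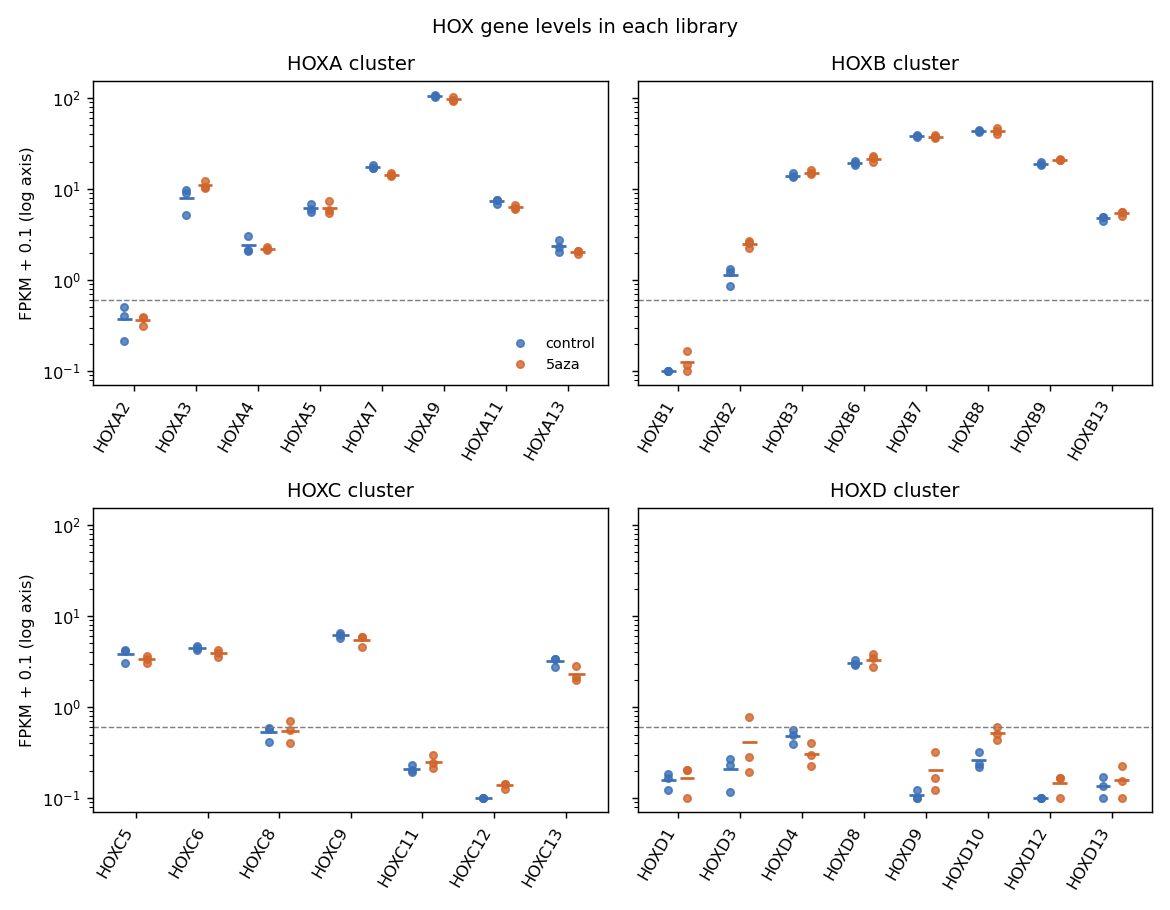
FPKM + 0.1 on a log axis for 31 HOX genes, in 4 panels by cluster and in order of number, with 1 point per library, a short line at the group mean, and control in blue and 5aza in orange. The dashed line marks 0.5 FPKM; HOXA9 stands highest, with means of 105 and 96.4 FPKM, and 7 of the 8 HOXD genes lie at or near the bottom of their panel.

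After 5aza, HOXB2 rose, HOXA7 fell, and 17 of the 19 HOX genes tested did not pass. A gene was tested when it reached 0.5 FPKM in at least 3 of the 6 libraries, and passed when limma's p, adjusted by Benjamini-Hochberg over 12360 genes, was under 0.05. The 2 calls are 10.5% of the tested HOX genes, where 23.7% of all genes tested were called. The order of these shares turned with the scaling: 5 of 19 HOX genes (26.3%) were called with quantile and with cyclic loess normalization, beside 21.4% of all genes with each. It also turned without 5aza replicate 1 (21.1% beside 17.6%) and, by less, without control replicate 2 (15.8% beside 15.2%). By direction, 1 of 19 rose and 1 of 19 fell, where 10.6% and 13.1% of all genes did. Rises were 44.7% of all calls, and 56.4% of them with cyclic loess, 50.5% with quantile normalization and 39.5% with scaling to the same median. The groups did not overlap for 6 of 19 HOX genes (31.6%), 4 of them higher after 5aza and 2 lower, beside 42.2% of all genes, 19.6% higher and 22.6% lower. The median log2 fold change was -0.03 over the tested HOX genes and -0.01 over all genes tested, and it was under 0.3 in size for 16 of 19 HOX genes (84.2%) and 83.5% of all genes. Fold changes are on the scale of log2(FPKM + 0.1), which understates the change of low genes. None of the 19 passed the filter through the 5aza libraries alone. These shares are a description, and no test compared the HOX genes with other genes.

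**Figure D2:**
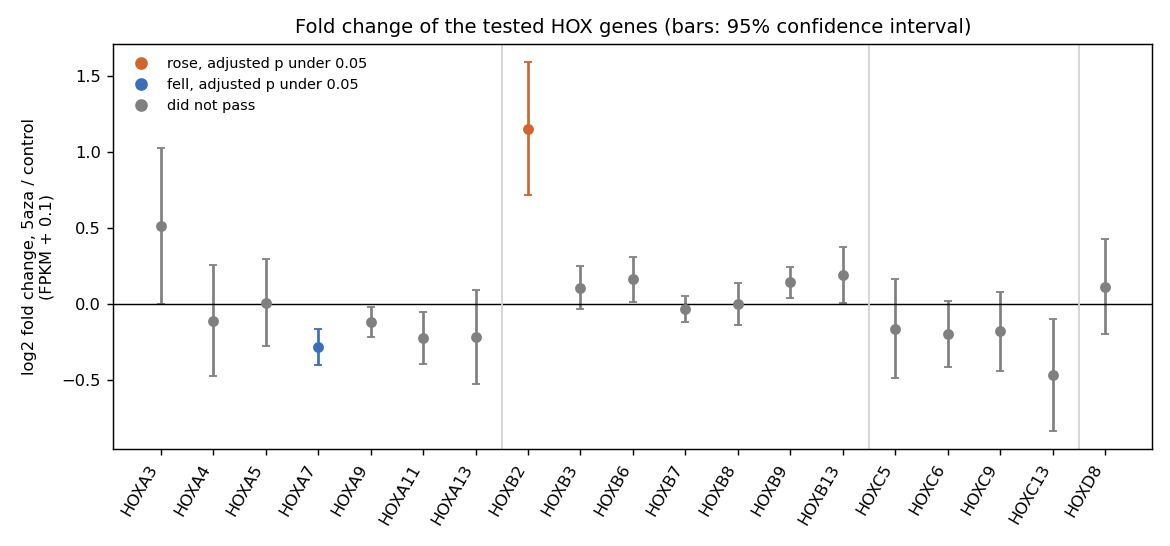
Log2 fold change of 5aza over control, in FPKM + 0.1, for the 19 tested HOX genes by cluster and number; points are limma estimates and bars their 95% confidence intervals. HOXB2 lies highest at 1.15 (orange, rose), HOXA7 at -0.28 fell (blue), and the other 17 (grey) did not pass.

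The rise was that of 1 of 4 anterior genes tested, where 10.6% of all genes tested rose. HOXB2 (ENSG00000173917, chromosome 17, 48540894 to 48544989), which patterns the hindbrain, was at 0.751, 1.12 and 1.22 FPKM in control and 2.12, 2.61 and 2.43 FPKM in 5aza libraries. Every 5aza library was above every control library. Its control mean was 1.03 ± 0.249 FPKM and its 5aza mean 2.39 ± 0.248 FPKM (SD, n = 3). The log2 fold change was 1.15 (SE 0.19; limma adjusted p = 0.00487), the only one of at least 2-fold among the tested HOX genes. Of all genes tested, 2.17% passed with a rise of at least 2-fold. With a pseudocount of 1 the log2 change was 0.74 (adjusted p = 0.00346). HOXB2 passed in all 15 alternatives run, with adjusted p between 0.00346 and 0.0232.

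HOXA3, which acts in the pharyngeal arches that form thymus and parathyroid, was at 8.88, 9.57 and 5.06 FPKM in control and 10.4, 12.2 and 10.1 FPKM in 5aza libraries. The groups did not overlap, but control replicate 3 stood apart below the other controls, and the gene did not pass (log2 fold change 0.52, SE 0.22, adjusted p = 0.131). Without control replicate 3 the log2 fold change was 0.23 (adjusted p = 0.130). HOXB3, a paralogue of HOXA3, was at 13.3, 13.6 and 14.8 FPKM in control and 14.3, 14.7 and 15.9 FPKM in 5aza libraries (log2 fold change 0.11, adjusted p = 0.239). HOXA4 was at 2.91, 2.00 and 2.01 FPKM and then 2.07, 2.02 and 2.22 FPKM. Its log2 fold change was -0.11 (adjusted p = 0.664), and 0.06 without control replicate 1. Both had overlapping groups. The summed level of the 9 anterior members, of which HOXB3 and HOXA3 are the main part, was 26.7, 26.8 and 24.2 FPKM in control and 29.8, 32.2 and 31.7 FPKM in 5aza libraries. No 5aza sum reached down to a control sum. This sum was not tested.

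The fall was that of 1 of 8 central genes tested, where 13.1% of all genes tested fell. HOXA7 (ENSG00000122592, chromosome 7, 27153716 to 27157936), which patterns the thoracic axial skeleton, was at 16.9, 18 and 16.9 FPKM in control and 14.1, 13.7 and 14.8 FPKM in 5aza libraries. Every 5aza library was below every control library. Group means were 17.3 ± 0.635 and 14.2 ± 0.553 FPKM (SD, n = 3). The log2 fold change was -0.28 (SE 0.050; limma adjusted p = 0.00724), and HOXA7 passed in all 15 alternatives (adjusted p between 0.00602 and 0.0293). Of its 2411 exonic bases, 1507 are also in exons of HOXA-AS3 on the other strand.

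The more abundant central genes of HOXB did not pass. HOXB8, which acts in the spinal cord and in blood progenitors, was at 42.6, 43.4 and 44.1 FPKM in control and 43.6, 47.2 and 39.8 FPKM in 5aza libraries. The 5aza libraries enclosed the control range, and the interval of the log2 fold change ran from -0.14 to 0.14. HOXB7 was at 39.1, 38.3 and 37.4 FPKM in control and 38.7, 36.6 and 37.0 FPKM in 5aza libraries, and its interval ran from -0.12 to 0.05. HOXB6 was at 20.1, 18.3 and 19.0 FPKM in control and 21.8, 19.8 and 22.8 FPKM in 5aza libraries. Its log2 fold change was 0.16 (adjusted p = 0.0992), and it passed without 5aza replicate 2 (adjusted p = 0.0424). The groups overlapped for both.

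The remaining central genes were lower in level. HOXA5, needed for lung formation, was at 5.51, 6.68 and 5.94 FPKM in control and 5.75, 7.23 and 5.36 FPKM in 5aza libraries. HOXC5 was at 4, 4.11 and 2.97 FPKM and then 3.25, 2.97 and 3.57 FPKM, and HOXC6 at 4.40, 4.09 and 4.58 FPKM and then 4.11, 3.43 and 3.84 FPKM. HOXD8 was at 3.35, 3.71 and 2.64 FPKM after 5aza. The groups overlapped in all 4. The intervals of their log2 fold changes were -0.28 to 0.30, -0.49 to 0.16, -0.41 to 0.02 and -0.20 to 0.43, in that order, and each included 0. The signs of HOXA5, HOXB7 and HOXB8, whose log2 fold changes were under 0.04 in size, turned with the scaling.

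Of the 7 tested posterior genes, 0 passed in limma, and 5 of the 7 had an unadjusted p under 0.05, as had 2 of 4 anterior and 2 of 8 central genes and 37.3% of all genes tested. HOXA9 was at 102, 94.2 and 93.2 FPKM after 5aza, and the highest of these reached above the lowest control library. Its log2 fold change was -0.12 (95% confidence interval -0.22 to -0.02, adjusted p = 0.0850); it passed with the replicate number as a block (adjusted p = 0.0309) and without 5aza replicate 1 (adjusted p = 0.0350), and was -0.03 with quantile or cyclic loess normalization.

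HOXA11, a gene of limb, kidney and uterus, was at 6.72, 7.43 and 7.55 FPKM in control and 6.08, 6.56 and 5.93 FPKM in 5aza libraries, with no overlap (log2 fold change -0.22, adjusted p = 0.0643). It passed as a fall with quantile normalization (adjusted p = 0.0326), cyclic loess normalization (0.0403) and scaling to the same median (0.0438). Of its 2307 exonic bases, 717 are also in exons of HOXA11-AS on the other strand. HOXA13, which acts in the hindgut and digits, was at 2.67, 1.95 and 2.21 FPKM in control and 1.96, 1.99 and 1.84 FPKM in 5aza libraries, with overlap (log2 fold change -0.22, adjusted p = 0.279).

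HOXC13, the HOX gene of hair and nail, was at 3.31, 3.30 and 2.67 FPKM in control and 2.74, 1.89 and 2.06 FPKM in 5aza libraries. One 5aza library, replicate 1, lay above the lowest control library. The log2 fold change was -0.47 (adjusted p = 0.0695), and the gene passed with quantile normalization (adjusted p = 0.0391), cyclic loess normalization (0.0479) and without 5aza replicate 1 (0.0281). HOXC9 was at 5.69, 6.06 and 6.34 FPKM in control and 5.77, 5.84 and 4.46 FPKM in 5aza libraries, with overlap (adjusted p = 0.291). All 4 tested HOXC genes had a log2 fold change below 0, as had 6423 of all 12360 genes tested, and none of the 4 passed. HOXC6 shares 557 of its 3540 exonic bases with other HOXC genes on the same strand, so the 4 are not fully separate readings. For HOXC5, 1081 of 1805 exonic bases are shared with other annotated genes on the same strand.

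The posterior genes of HOXB lay on the other side. HOXB9 was at 18.1, 19.7 and 18.6 FPKM in control and 20.8, 20.5 and 21.0 FPKM in 5aza libraries, with no overlap (log2 fold change 0.14, adjusted p = 0.0522). It passed as a rise with quantile normalization (adjusted p = 0.0410), cyclic loess normalization (0.0295) and without control replicate 2 (0.0449). HOXB13, a gene of the prostate and distal gut, was at 4.34, 4.77 and 4.85 FPKM in control and 5.55, 5.48 and 4.96 FPKM in 5aza libraries, again with no overlap (log2 fold change 0.19, adjusted p = 0.124). Replicate 3 of 5aza came close to the controls.

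**Figure D3:**
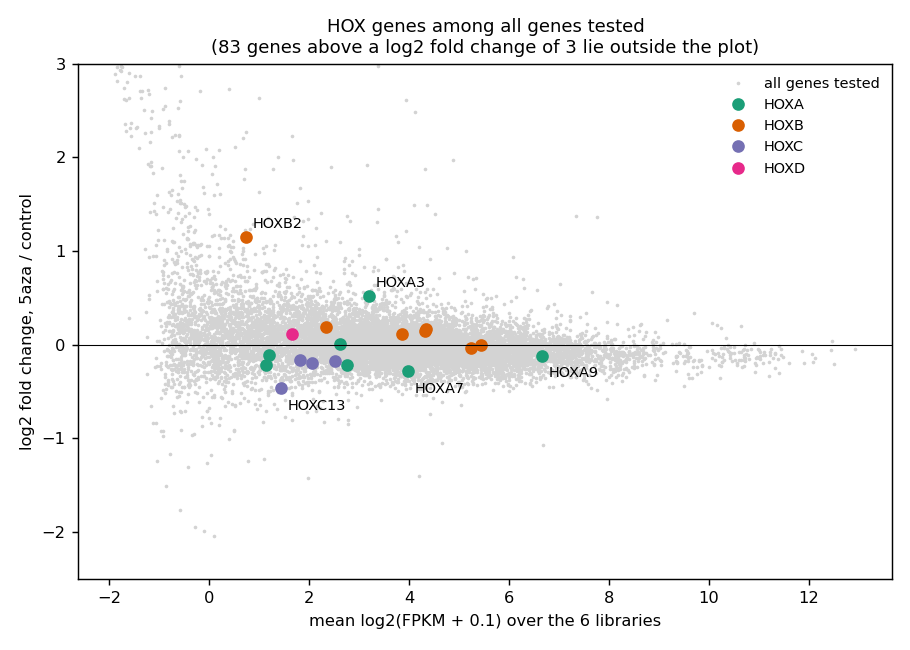
Log2 fold change of 5aza over control against the mean of log2(FPKM + 0.1) for the genes tested (grey) with the 19 HOX genes in colour by cluster; 83 genes above 3 lie outside the plot. HOXB2 is the highest HOX point at 1.15 and HOXC13 the lowest at -0.47, and 16 of the 19 lie within 0.3 of the line at 0.

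The HOX level summed over all clusters moved little, and the sums of HOXC and HOXD moved by more in proportion. HOXA summed to 152, 149.9 and 142 FPKM in control and 143, 138 and 134 FPKM in 5aza libraries, and HOXB to 138, 139 and 140 and then 147, 147 and 144 FPKM. The groups overlapped in HOXA and did not in HOXB. HOXC sums were 17.8, 18.2 and 17.1 FPKM against 16.6, 14.6 and 14.7 FPKM, with every 5aza library lower, and HOXD sums 3.61, 3.38 and 4.12 against 4.49, 4.90 and 3.96 FPKM, with overlap. As ratios of means, 5aza over control, these are 0.934, 1.05, 0.863 and 1.20. By position the ratio was 1.21 for anterior, 0.985 for central and 0.946 for posterior members. Over the 31 HOX genes the sum was 308 ± 4.63 FPKM in control and 304 ± 7.27 FPKM after 5aza (SD, n = 3). Sums were not tested. In HOXA and among posterior genes the sum went with the most abundant member, HOXA9, whose ratio was 0.922. The HOXB sum did not go with its most abundant member, HOXB8, whose ratio was 1.003. Nor did the anterior sum go mainly with HOXB3, the most abundant there, whose ratio was 1.08. HOXA3 moved by more, with means of 7.84 FPKM in control and 10.9 FPKM after 5aza (ratio 1.39). HOXA3 did not pass, and its control replicate 3 stood apart below the other controls.

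**Figure D4:**
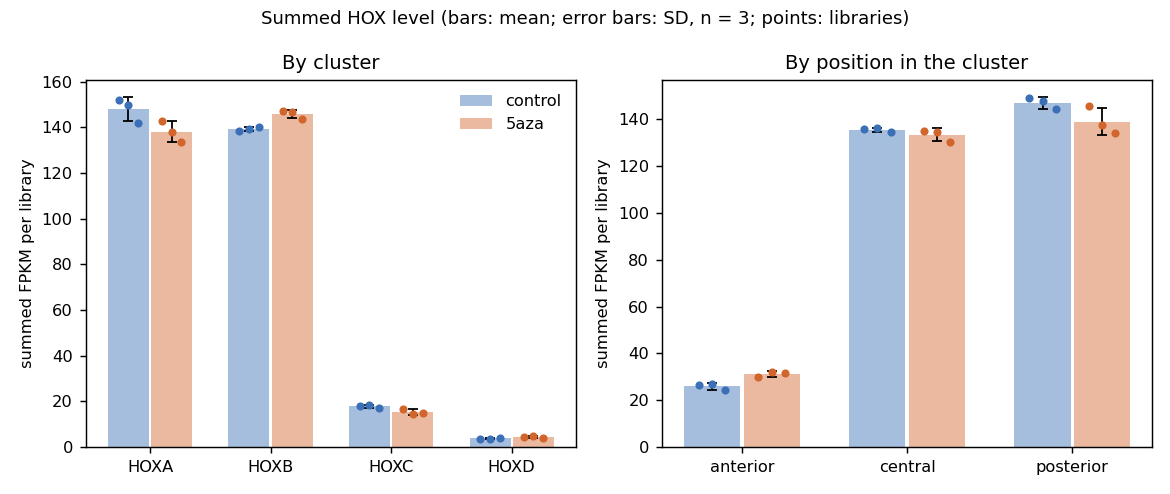
Summed FPKM of HOX genes per library, by cluster (left) and by position in the cluster (right); bars are means, error bars SD (n = 3) and points libraries, with control in blue and 5aza in orange. The anterior sum is 25.9 in control and 31.2 after 5aza, and the HOXC and HOXD sums are far below those of HOXA and HOXB in both groups.

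HOX genes that were near 0 in control cells stayed low after 5aza, as did most genes under 0.5 FPKM in the control libraries. In the control libraries 12 members were under 0.5 FPKM throughout, 7 of them in HOXD, 3 in HOXC (HOXC8, HOXC11 and HOXC12) and HOXA2 and HOXB1, and 0 of these 12 reached 0.5 FPKM in all 5aza libraries. Among all genes under 0.5 FPKM in every control library, 200 of 4261 (4.69%) did. In 9 of the 12 no library of either group reached 0.5 FPKM. The 3 with a library above it were HOXC8, HOXD3 and HOXD10, and each had a single such library.

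HOXD10, which specifies motor neurons of the hindlimb, showed the clearest difference among them. It was at 0.138, 0.120 and 0.223 FPKM in control and 0.336, 0.506 and 0.403 FPKM in 5aza libraries, with no overlap. HOXC12 also did not overlap: it was listed at 0 in all controls and at 0.0442, 0.0262 and 0.0447 FPKM after 5aza. With no filter on low values both passed in limma (adjusted p = 0.0221 for HOXD10 and 0.0468 for HOXC12). Of the genes that failed the filter, 13.6% rose in that fit, and in 26.6% the 5aza libraries lay above all controls, beside 2 of the 12 HOX members. The 5aza mean was above the control mean in 10 of the 12, and in 75.7% of all genes that failed the filter.

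The other low members overlapped between groups. HOXD3 was at 0.134, 0.0168 and 0.171 FPKM in control and 0.185, 0.0953 and 0.670 FPKM in 5aza libraries, so that 5aza replicate 3 alone stood high. HOXD9 was listed at 0 in control replicates 1 and 2 and was at 0.0239 FPKM in the other, and at 0.0220, 0.219 and 0.0668 FPKM after 5aza. HOXB1 and HOXD12 were listed at 0 in all controls and above 0 in 2 of 3 5aza libraries, at up to 0.0641 and 0.0684 FPKM. Of the 918 genes at 0 in all controls and above 0 in some 5aza library, 74.2% were above 0 in at least 2 of 3 and 48.7% in all 3. Among the 3 HOX genes at 0 in all controls these were 3 and 1 (HOXC12). The fewer rows at 0 in the 5aza libraries moved with these differences, and their part was not tested. HOXD4 went the other way, with means of 0.382 and 0.209 FPKM, and HOXA2, HOXC8, HOXC11, HOXD1 and HOXD13 had 5aza means of 0.264, 0.453, 0.150, 0.0684 and 0.0591 FPKM beside control means of 0.275, 0.427, 0.111, 0.0584 and 0.0355 FPKM. At such levels the files give no depth with which to set a floor.

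HOX values can mix transcripts of overlapping genes. In GENCODE release 29, 14 of the 31 members share exonic bases with a gene on the other strand, 12 with a gene on the same strand, and 14 with none. The sources used here do not give whether counting used strand, so reads of HOXA7 and HOXA-AS3, for example, cannot be told apart. Of 18 antisense and noncoding RNAs of the HOX clusters that were listed, 0 had values here. HOXB2 shares 87 of its 2336 exonic bases with HOXB-AS1. Of the 3029 exonic bases of HOXA9, 481 are shared on the same strand and 422 on the other strand. Of the low members, HOXD3 shares 2206 of 3548 and HOXD4 1178 of 1464 exonic bases with AC009336.2 on the same strand. HOXD10 shares 452 of its 2692 exonic bases with another gene on the same strand. HOXA3 and HOXB3 have 7 and 13 annotated transcripts with several starts, and a gene-level value does not say which was used.

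Partners and regulators of HOX genes were read from lists, to be set beside the 10.6% of all genes tested that rose and the 13.1% that fell. TALE cofactors, the homeodomain proteins that bind DNA together with HOX proteins, showed no call: of 8 in the table, 7 were tested and 0 passed in limma, with 1 (PBX2) at an unadjusted p under 0.05. PBX2, the most abundant, had means of 32.3 and 30.4 FPKM, and MEIS3 of 20.6 and 22.9 FPKM. Of 29 polycomb genes tested, 8 fell, 2 rose and 19 did not pass (27.6% fell and 6.90% rose; median log2 fold change -0.08). PHF19, a cofactor of polycomb repressive complex PRC2, fell from 44.5 to 33.6 FPKM and CBX2, a subunit of PRC1, from 22.0 to 17.2 FPKM, while JARID2 rose from 7.09 to 8.97 and AEBP2 from 19.0 to 21.2 FPKM, both PRC2 cofactors. The other falls were those of the PRC2 subunit genes EZH2, EED and RBBP4 and of PCGF2, CBX8 and SCMH1. The PRC2 subunit genes EZH1 and SUZ12 did not pass. Of 16 trithorax-group and related genes, 4 fell, 3 rose and 9 did not pass (25% fell and 18.8% rose; median log2 fold change -0.01). PSIP1, a chromatin reader, fell from 84.4 to 64.6 FPKM and DPY30, a subunit shared by the H3K4 methyltransferase complexes, from 72.9 to 62.6 FPKM. KDM6B, which removes the polycomb mark H3K27me3, rose from 4.78 to 6.34 FPKM and KMT2C, an H3K4 methyltransferase, from 3.02 to 3.98 FPKM. Over the alternatives, 1 to 2 polycomb genes rose and 4 to 9 fell, and 1 to 3 trithorax-group genes rose and 1 to 5 fell.

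Retinoic acid switches on anterior HOX genes in embryos. Of 9 genes of its pathway tested, 2 rose, 0 fell and 7 did not pass (median log2 fold change 0.15), and 22.2% is the share of these few genes that rose, beside 10.6% of all genes. ALDH1A3, which makes retinoic acid, rose from 59.0 to 83.8 FPKM, and CRABP2, which carries retinoic acid in the cell, from 313 to 352 FPKM. CYP26A1, which degrades retinoic acid and is its target, was at 0.448, 0.347 and 0.161 FPKM in control and 0.579, 0.651 and 0.636 FPKM in 5aza libraries and did not pass (adjusted p = 0.0818). It counts among the 9 tested only because all 5aza libraries reached 0.5 FPKM, which no control did. Its groups therefore could not overlap, and neither this nor its p supports a rise. The receptor gene RARB was under 0.1 FPKM in all 6 libraries. Of the ParaHox genes, relatives of HOX genes outside the clusters, CDX2 (9.01 and 9.37 FPKM) and PDX1 (2.68 and 2.70 FPKM) did not pass. CDX1 was listed at 0 in all controls and at 0.292, 0.367 and 0.205 FPKM after 5aza. Of 7 genes of DNA methylation, DNMT1, the maintenance methyltransferase, fell from 64.0 to 47.6 FPKM and its partner UHRF1 from 76.1 to 66.9 FPKM, and 5 did not pass. Over the alternatives 0 to 2 of them fell, with 0 when control replicate 2 was left out and with no variance trend.

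Genes around the clusters gave 2 rises and 5 falls among 18 tested of 23 in the table (11.1% and 27.8%, beside 10.6% and 13.1% of all genes; median log2 fold change -0.03), and 1 to 2 rises and 2 to 6 falls over the alternatives. Next to HOXA, SKAP2, an adaptor protein gene 97.8 kb from the cluster, rose from 20.3 to 22.7 FPKM, and EVX1, a homeobox gene 42.6 kb away, was at 0.119 and 0.183 FPKM. PRAC1 and PRAC2, between HOXB9 and HOXB13, stayed under 0.6 FPKM in all libraries except for PRAC1 in 5aza replicate 1, which was at 2.37 FPKM while the other 5 libraries were listed at 0. Flanking HOXB, TTLL6 (0.274 and 0.277 FPKM), SKAP1 (7.59 and 7.73 FPKM), CALCOCO2 (33.4 and 34.5 FPKM) and SNX11 (16.4 FPKM in both groups) were not called, and CBX1, 427 kb away, fell from 142 to 126 FPKM. Around HOXC, CALCOCO1 rose from 8.96 to 11.7 FPKM, ATP5MC2 fell from 390 to 333 and HNRNPA1 from 1636 to 1412 FPKM, and SMUG1, CBX5 and NFE2 did not pass. Around HOXD, EVX2, 8.98 kb away, was at or near 0 in all libraries, MTX2 (43.2 and 41.1 FPKM) and LNPK (7.41 and 7.70 FPKM) did not pass, and HNRNPA3, 1022 kb away, fell from 327 to 285 FPKM. The remaining members, SNX10 (a fall from 29.4 to 26.5 FPKM), HIBADH, ATF2 and ATP5MC3, lie 325 to 925 kb from their cluster, and the last 3 did not pass.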

How the data were processed

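RNA-seq of 6 HCT116 libraries, 3 control and 3 given 5aza, was deposited by the authors as FPKM per gene in a single table, per the file headers. Per the submitters' processing notes, DESeq2 1.10.1, HTSeq 0.6.0 and STAR 2.5.1b were among the tools; Rnor_6.0 and GRCh38 are both named as builds, without a stated use. Which program made the FPKM is not given in the sources here. Total reads per library are not given there either, so depth is unknown and no counting interval is given. Columns were matched to samples through the sample descriptions, which carry the code DAC where titles have 5aza. Of 16726 rows, 16715 identifiers were distinct, and of 11 repeated identifiers only the row of higher mean entered; no HOX gene was among them. Symbols were found for 15421 of 15451 Ensembl identifiers. Coordinates and exons are from GENCODE release 29 on GRCh38, and promoters from RefSeq on GRCh38.p14.

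Values were used as log2(FPKM + 0.1). Genes reaching 0.5 FPKM in 3 or more libraries, 12360 in all, were fitted with limma 3.58.1 in R 4.3.3. Its moderated two-sided test used a trend of variance with level, p-values were adjusted by Benjamini-Hochberg over those genes, and intervals are limma's at 95%. The script was tested on simulated data. A HOX gene and a gene of another list are not reported here and were left out of counts, sums and figures. Every other HOX gene is named, and from the other lists up to 2 rising and 2 falling genes with the largest changes, with all genes of the neighbour and ParaHox lists. PBX2, MEIS3, CYP26A1, RARB, the marker genes named for their level and the polycomb genes named without levels were chosen after their values were seen. Members, lists and rules were chosen with earlier results of these data known. Alternatives were pseudocounts of 1 and 0.01, no filter, a filter on a mean of 1 FPKM, quantile and median scaling, no variance trend, a replicate block, and leaving out each library. Cyclic loess normalization was added after seeing the data.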

Additional observations from a re-analysis of the deposited data

How the results depend on the processing

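The rise of HOXB2 and the fall of HOXA7 were called in each of the 15 alternatives. The number of HOX genes that rose was 2 with quantile and with cyclic loess normalization, 3 with no filter on low values, and 1 to 2 when a library was left out. The number that fell was 3 with quantile and with cyclic loess normalization, 2 with scaling to the same median, and 1 to 3 with a library left out. Together the calls were 5 of 19 (26.3%, beside 21.4% of all genes) with quantile or cyclic loess normalization, 4 of 31 (12.9%, beside 19.5%) with no filter, and 2 to 4 of 19 with a library left out. Over all genes, falls numbered 1041 with no variance trend and 940 to 1521 with a library left out, and rises 890 to 1078. Signs turned for HOXA5 (-0.040 with quantile, -0.024 with cyclic loess and -0.0051 with median scaling, and -0.12 to 0.10 with a library left out), HOXB7 (0.017 with quantile and 0.016 with cyclic loess normalization), HOXB8 (-0.013 with median scaling, and -0.059 to 0.064 with a library left out) and HOXA4 (-0.20 to 0.064 with a library left out); the cause was not tested. With the replicate block, 2 HOX genes fell (HOXA7 and HOXA9) and 3 were called. Deviations of same-numbered libraries correlated at 0.0482, 0.0772 and 0.0677 across genes, under the 0.1 set for calling them paired. Each library correlated best with its own number, a hint from the data and not from the design. The depth of the libraries is unknown, so values below 0.1 FPKM limit what can be read from the silent genes.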
